A study of Saccharomyces cerevisiae with 6 samples.

Results

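The 35 genes described here belong to nitrogen uptake and use in the budding yeast Saccharomyces cerevisiae. They stand under nitrogen catabolite repression, take up ammonium into glutamate and glutamine, or regulate such genes. They were chosen by name, and all 35 were found among the 6400 named genes of the count table. They comprise 10 transporters, 5 enzymes of ammonium assimilation, 5 regulators of the GATA system, 4 pathway activators, 5 genes of allantoin and urea breakdown and 6 genes of proline, GABA (gamma-aminobutyrate) and arginine breakdown. The RNA-seq study compared 3 cultures of CX01F, an evolved strain, with 3 cultures of CX01, its parent, to learn how metabolism was rearranged during adaptation to methanol. All cultures had been grown in rich YPD medium overnight, held for 16 h in defined Delft medium and then given Delft medium with 1% methanol in place of glucose. They were shaken at 200 rpm and 30 °C and collected at an OD600 near 1.0. The genotype label is the same for CX01F and CX01. It names the deletions ∆PEX31 and ∆PEX32, the yeast genes PEX5, S.c MDH2, S. cMDH3 and S. Cnde1, the xylose genes P. sXR, P. sXDH and P. sXK, and further the introduced P. pDAK, P. Paox1-SKL, B. mACT1-skl, P. pPYC, B. mMDH3-skl and P. Pdas1-skl. Whether CX01F is 1 clone, and the nitrogen source of the medium, are not given in the sources used here.

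Yeast cells given a good nitrogen source, such as glutamine or ammonium, keep the genes for poorer sources silent, which is called nitrogen catabolite repression. The GATA activators Gln3 and Gat1 switch these genes on through GATAAG sequences in their promoters, the GATA repressors Dal80 and Gzf3 compete for the same sequences, and Ure2 holds Gln3 in the cytoplasm while nitrogen is plentiful. Ammonium itself enters through the Mep permeases and is built into glutamate by the NADP-dependent glutamate dehydrogenases and into glutamine by glutamine synthetase.

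Library totals ranged from 52849030 to 62826253 counts in CX01F and from 51537969 to 63183824 in CX01, and no pair of libraries from a strain agreed within sampling noise. PEX31, labelled as deleted, had 0 or 1 count in each CX01F library and 0 in each CX01 library. The other labelled deletion, PEX32, still gave 167 to 230 counts per CX01F library and 219 to 279 per CX01 library. The strains differed at most genes. The edgeR quasi-likelihood test, with Benjamini-Hochberg adjustment over 6129 tested genes and a threshold of 0.05, called 91.4% of them, 45.5% higher and 45.9% lower in CX01F. A call by itself therefore says little about a gene, and sizes are given throughout. Coding genes of chromosomes XI and XV had median log2 changes of -0.82 and -0.86, whereas the medians of the 14 remaining chromosomes lay between 0.018 and 0.26. Of the 35 genes, GAP1, DAL80 and PUT3 lie on XI and PUT4 and GDH1 on XV.

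All 35 genes passed the filter on low counts. In CX01F 11 were called higher (45.5% of all tested genes were) and 21 lower (against 45.9%), and 3 were not called. The median log2 change was -0.23, beside -0.0020 over all tested genes, and the median absolute change was 0.81, beside 0.60. Changes of at least 2-fold were called in 12 of the 35 (30.6% of all tested genes), 5 of them higher in CX01F (against 16.1%) and 7 lower (against 14.6%). For 34 of the 35 the libraries of the strains did not overlap, as was so for 91.9% of all tested genes. On the 30 genes outside XI and XV, fitted without the genes of those chromosomes, 11 were called higher (44.5% of the genes in that fit) and 17 lower (against 46.3%). The nitrogen genes thus moved in both directions, with more of them called lower than higher, at 60.0% and 31.4% of the 35. Whether this lean is particular to them was not tested.

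**Figure D1:**
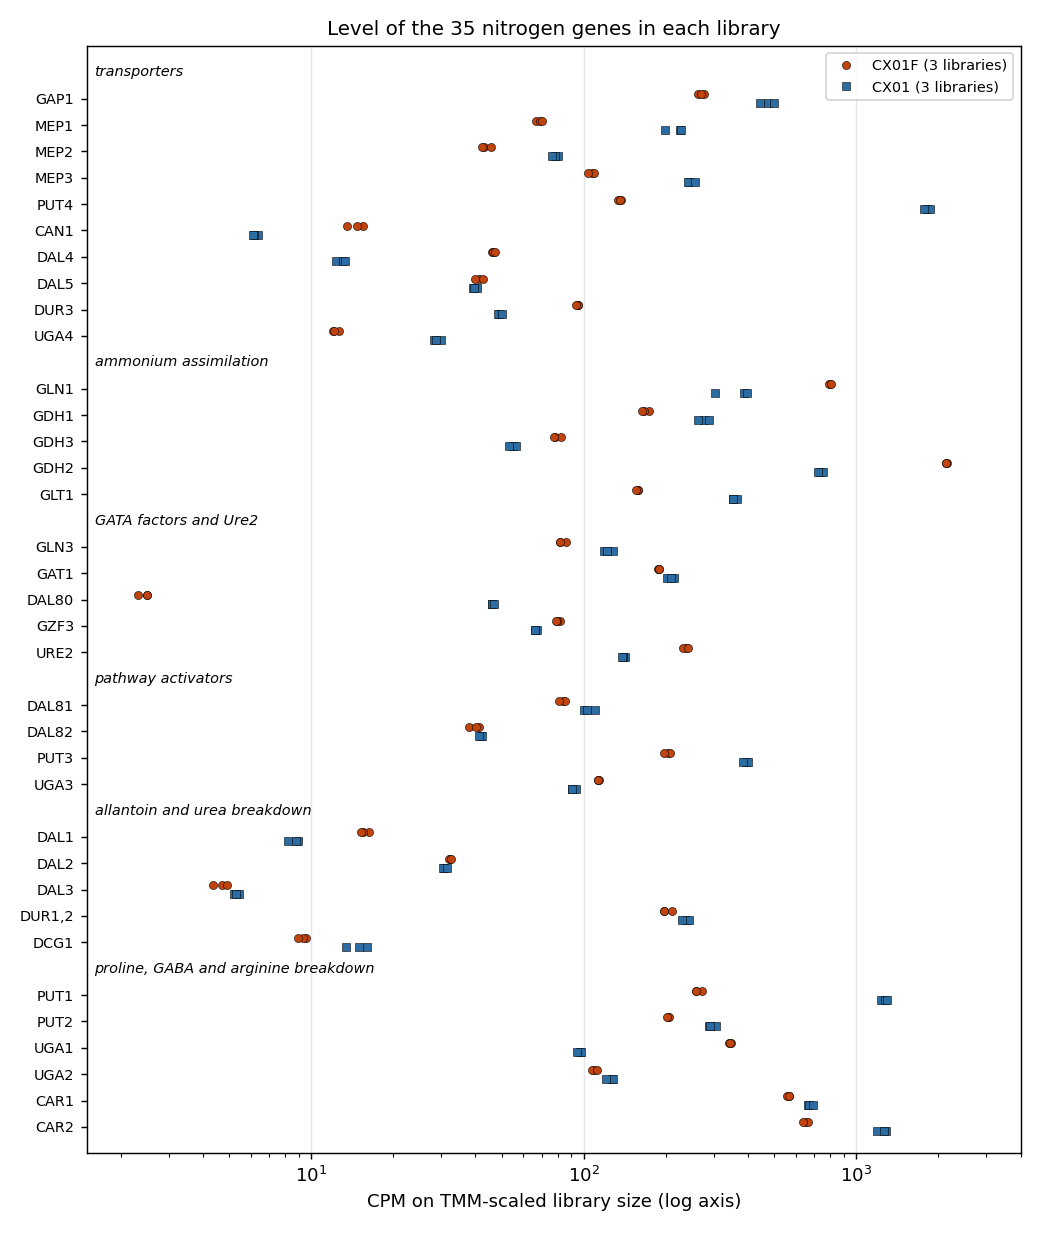
Level of each of the 35 genes in each library, in CPM (counts relative to the TMM-scaled library size), on a log axis, with CX01F drawn above CX01 for each gene and genes grouped by role. The points of the strains stand apart for all genes but DAL5, and the widest gaps are at DAL80 and PUT4.

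The sequences behind the GATA system are shown first, for the genes to which the results below return. Each is a 300-base stretch upstream of the start codon in the RefSeq R64 reference genome, 5′ to 3′ on the gene's own strand, picked as the stretch between 600 and 101 bases before the start codon with the most matches. Capitals mark GATAAG on either strand, which reads CTTATC on the opposite one, and sites can overlap. The authors' genome build is not given, so these are sequences of the reference strain and not of CX01F or CX01. DAL80 is shown as the gene with the largest fall of the 35, MEP2 for having the most matches, DAL4 for the largest rise of the 35, and DAL3 as a gene of many matches with little change. The stretch before DAL80 is chrXI:506498-506797, plus strand, and that before MEP2 is chrXIV:356988-357287, plus strand. The stretch before DAL4 is chrIX:408000-408299, plus strand, and that before DAL3 is chrIX:415718-416017, minus strand.

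DAL80: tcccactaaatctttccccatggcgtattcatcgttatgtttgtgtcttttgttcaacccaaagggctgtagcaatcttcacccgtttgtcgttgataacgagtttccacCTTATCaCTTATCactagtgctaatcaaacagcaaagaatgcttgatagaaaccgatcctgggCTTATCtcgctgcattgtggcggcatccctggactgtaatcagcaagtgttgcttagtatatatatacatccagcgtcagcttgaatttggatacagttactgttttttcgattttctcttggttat
MEP2: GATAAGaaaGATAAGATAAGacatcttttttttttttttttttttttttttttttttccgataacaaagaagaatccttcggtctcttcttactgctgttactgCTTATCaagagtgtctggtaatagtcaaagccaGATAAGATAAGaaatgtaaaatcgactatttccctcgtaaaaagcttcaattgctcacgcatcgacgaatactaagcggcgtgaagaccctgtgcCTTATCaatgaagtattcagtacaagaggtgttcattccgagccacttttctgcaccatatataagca
DAL4: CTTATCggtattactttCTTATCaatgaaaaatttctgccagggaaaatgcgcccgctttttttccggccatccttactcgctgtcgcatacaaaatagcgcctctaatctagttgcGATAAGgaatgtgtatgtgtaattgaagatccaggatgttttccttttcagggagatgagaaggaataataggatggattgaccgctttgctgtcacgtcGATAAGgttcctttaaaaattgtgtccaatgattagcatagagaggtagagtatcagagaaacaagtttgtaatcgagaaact
DAL3: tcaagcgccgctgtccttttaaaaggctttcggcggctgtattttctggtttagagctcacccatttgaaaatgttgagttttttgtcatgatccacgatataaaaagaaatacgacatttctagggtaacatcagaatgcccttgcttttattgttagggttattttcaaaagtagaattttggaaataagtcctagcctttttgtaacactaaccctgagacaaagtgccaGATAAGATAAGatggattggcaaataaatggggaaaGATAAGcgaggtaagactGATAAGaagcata

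These stretches hold 3 matches before DAL80, 7 before MEP2, 4 before DAL4 and 4 before DAL3. In the 600 bases before the start codon, 27 of the 35 genes (77.1%) had at least 1 GATAAG, against 26.8% of 5999 promoters of nuclear coding genes. In 21 of the 35 (60.0%) there were at least 2, against 4.92%. In the shorter window from 250 bases before to 50 after the start codon, 15 of 35 (42.9%) had a match, against 14.7%. The shorter word GATAA, which each GATAAG contains, was found there in 26 of 35 (74.3%), against 61.5%. The genes were chosen by name as nitrogen genes, so these shares describe the choice and are no result about the strains. In that shorter window GATAAG was found in 2 of the 11 higher genes, 10 of the 21 lower genes and all 3 uncalled genes. With the 600-base window, 8 of the 11 higher genes, 16 of the 21 lower genes and all 3 uncalled genes had a match. The median there was 2 sites in each of these sets. Whether matches and direction go together was not tested. Genes with no match included PUT4, with the second largest fall of the 35, and UGA1, with the second largest rise. DAL1 and DAL4 share their upstream region, since they are transcribed away from each other, and so do GLT1 and UGA3, so their matches are not separate observations. A match is a run of letters and not a measured binding site.

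**Figure D2:**
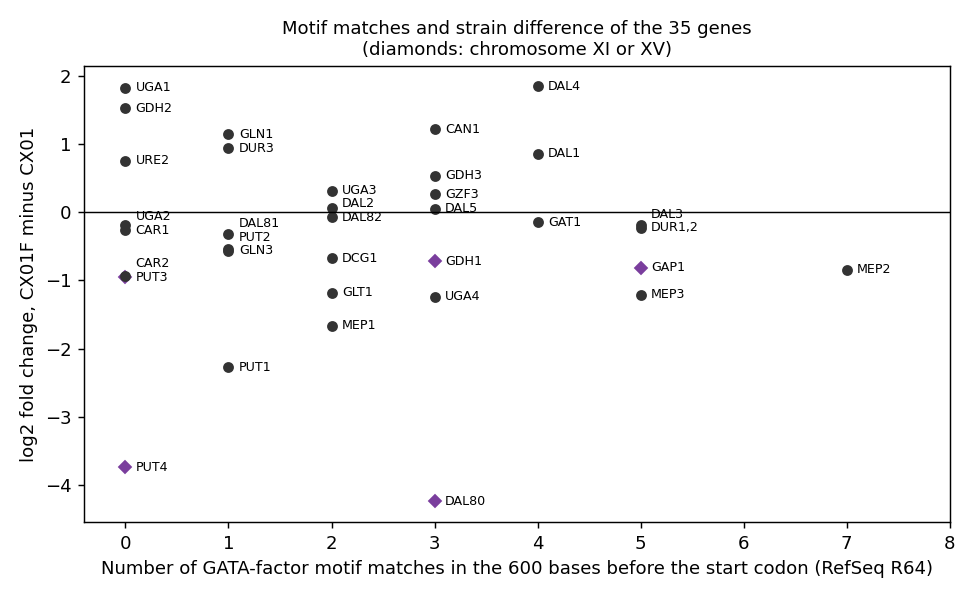
Number of GATA-factor motif matches in the 600 bases before the start codon (horizontal axis) and log2 fold change of CX01F minus CX01 (vertical axis) for the 35 genes, with diamonds for genes on chromosomes XI or XV. Genes with 3 matches span from DAL80 at -4.25 to CAN1 at 1.22, and genes with none span from PUT4 at -3.75 to UGA1 at 1.83.

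The regulators of the GATA system differed far more at 1 repressor than at the activators. DAL80 had 2.32, 2.48 and 2.50 CPM in the CX01F libraries, against 46.2, 45.9 and 46.7 CPM in the CX01 libraries. The groups were far apart and each was tight. The fall was 19.0-fold (log2 -4.25, SE 0.0554, edgeR adjusted p = 2.31e-17) and rested on 122 to 146 counts per CX01F library. DAL80 lies on XI, and within the genes of XI alone its log2 change was still -3.40 (edgeR adjusted p = 5.86e-21). In the annotation no other gene overlaps DAL80, and none of its 50-base words occurs elsewhere in R64.

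The other GATA repressor, GZF3, went slightly the other way. It averaged 80.1 ± 1.71 CPM in CX01F, against 66.6 ± 0.683 CPM in CX01 (SD, n = 3 each, log2 0.27), but with scaling by library size only the log2 change was 0.058 and was no longer called. Counted per kilobase of coding length, DAL80 was at 3.00 ± 0.122 CPM in CX01F, the lowest level of the 35 genes, and at 57.1 ± 0.506 CPM in CX01, above the 40.2 ± 0.413 CPM of GZF3 there. In CX01F, GZF3 stood at 48.4 ± 1.03 CPM per kilobase, so the order of the repressors was turned round between the strains.

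The activators were lower by small amounts. GLN3 had 82.0, 85.6 and 81.5 CPM in CX01F, against 119, 128 and 121 CPM in CX01 (log2 -0.56, SE 0.033, edgeR adjusted p = 4.73e-10). GAT1, whose own promoter is a target of GATA factors, averaged 188 ± 0.763 CPM in CX01F, against 208 ± 5.67 CPM in CX01 (SD, n = 3 each, log2 -0.15). URE2, the cytoplasmic inhibitor, rose. It stood at 237, 231 and 240 CPM in CX01F, against 142, 139 and 138 CPM in CX01 (log2 0.76, SE 0.026, edgeR adjusted p = 8.89e-13). In CX01F URE2 was thus the most abundant of these 5 mRNAs per kilobase of coding length, at 221 ± 4.36 CPM, while in CX01 its 131 ± 1.61 CPM lay beside the 136 ± 3.70 CPM of GAT1.

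**Figure D3:**
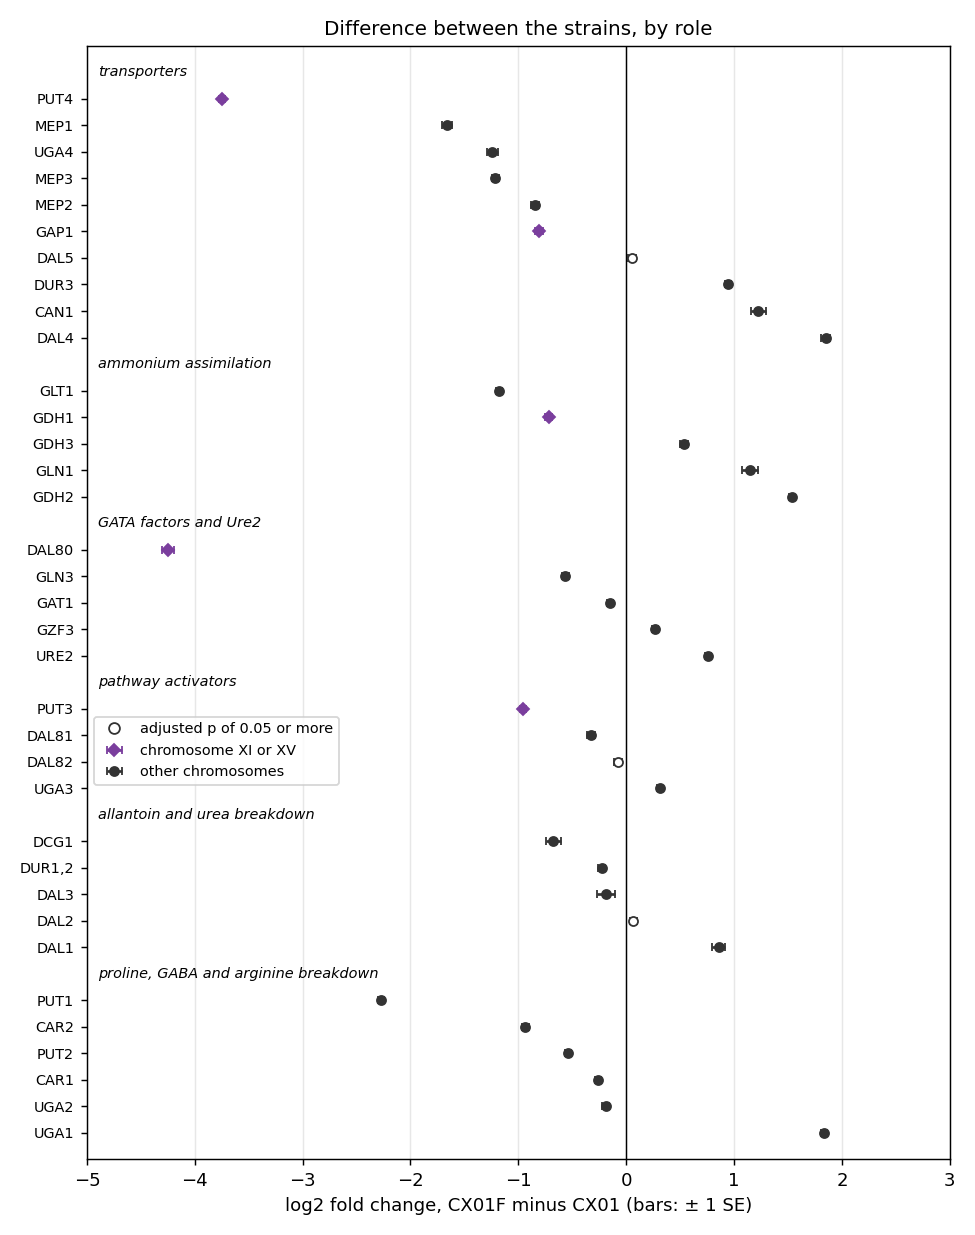
Log2 fold change of CX01F minus CX01 for each of the 35 genes, grouped by role, with bars of 1 standard error (SE). Open symbols did not pass an adjusted p of 0.05 and diamonds are genes of chromosomes XI or XV, 5 in all, each lower in CX01F in this fit of all genes.

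Ammonium transport genes fell as a set of 3. MEP1 had 66.8, 68.7 and 70.0 CPM in CX01F, against 226, 227 and 198 CPM in CX01, which was 3.17-fold lower (log2 -1.66, SE 0.046, edgeR adjusted p = 7.42e-14). MEP3 fell 2.32-fold, with 107, 109 and 103 CPM in CX01F, against 244, 240 and 256 CPM in CX01 (log2 -1.21). MEP2, the high-affinity permease that also signals ammonium shortage, fell 1.80-fold, with 43.1, 42.1 and 45.5 CPM in CX01F, against 80.5, 78.2 and 76.5 CPM in CX01 (log2 -0.85). For each permease the strains' libraries stood clear of each other. Added up per kilobase of coding length, the 3 permeases came to 147 to 149 CPM in CX01F and 359 to 372 CPM in CX01. Because MEP2 fell least, its share of that sum was 19.6%, 18.9% and 20.5% in CX01F, against 14.4%, 14.1% and 14.2% in CX01. The difference of 5.41 percentage points gave p = 0.1 in a two-sided exact permutation test, the smallest value that 3 against 3 libraries can give. The coding sequences of MEP1 and MEP3 are 71.2% identical with no identical run over 20 bases, so an exact match to both needs a read that short.

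Among the permeases for organic nitrogen, those for proline and GABA fell and those for arginine, allantoin and urea rose. PUT4, the proline permease, had 133, 137 and 136 CPM in CX01F, against 1820, 1855 and 1770 CPM in CX01. It was 13.4-fold lower (log2 -3.75, SE 0.031, edgeR adjusted p = 5.26e-19), and 2.90 lower on the log2 scale within the genes of XV alone, its own chromosome. UGA4, the GABA permease, had 11.98, 12.7 and 12.1 CPM in CX01F, against 28.1, 29.9 and 28.5 CPM in CX01 (log2 -1.24).

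The permeases that rose did so from low levels. DAL4, the allantoin permease, had 45.9, 46.4 and 47.3 CPM in CX01F, against 12.3, 13.0 and 13.3 CPM in CX01. That 3.61-fold rise (log2 1.85, SE 0.0425, edgeR adjusted p = 8.67e-15) was the largest of the 35 genes. CAN1, the arginine permease, had 13.5, 15.5 and 14.6 CPM in CX01F, against 6.38, 6.15 and 6.12 CPM in CX01 (log2 1.22). DUR3, the urea permease, averaged 94.7 ± 0.984 CPM in CX01F, against 49.2 ± 0.785 CPM in CX01 (SD, n = 3 each, log2 0.95). DAL5, the allantoate permease, was not called, averaging 41.2 ± 1.39 CPM in CX01F, against 39.7 ± 0.781 CPM in CX01 (log2 0.051, edgeR adjusted p = 0.202). With scaling by library size only it was called lower (log2 -0.16, edgeR adjusted p = 0.00102).

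GAP1, the general amino acid permease, fell by about as much as the typical gene of its chromosome. It had 263, 275 and 269 CPM in CX01F, against 474, 497 and 444 CPM in CX01 (log2 -0.81, SE 0.037, edgeR adjusted p = 2.49e-11). The median on XI was -0.82, and among the genes of XI alone its log2 change was 0.035 (edgeR adjusted p = 0.333). The part of the chromosome in the values of the members on XI and XV was not tested beyond these fits.

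Ammonium assimilation was rearranged, with GLN1, GDH2 and GDH3 higher and GLT1 and GDH1 lower. GLN1, glutamine synthetase, had 800, 796 and 809 CPM in CX01F, against 387, 396 and 303 CPM in CX01. The CX01 libraries were less even here than for most of the genes, with replicate 3 lowest, yet none came near CX01F. The rise was 2.22-fold (log2 1.15, SE 0.0714, edgeR adjusted p = 9.95e-10). GLT1, glutamate synthase, which turns glutamine and 2-oxoglutarate into glutamate, had 158, 158 and 155 CPM in CX01F, against 353, 366 and 351 CPM in CX01 (log2 -1.18). Per coding length, GLN1 mRNA stood to GLT1 mRNA at 29.5 ± 0.579 in CX01F and 5.86 ± 0.758 in CX01 (SD, n = 3 each).

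GDH2, the NAD-dependent glutamate dehydrogenase, which releases ammonium from glutamate, was the most abundant of the 35 in CPM in CX01F. It had 2158, 2123 and 2127 CPM in CX01F, against 737, 753 and 724 CPM in CX01. The 2.89-fold rise (log2 1.53, SE 0.0275, edgeR adjusted p = 6.09e-16) was many times the spread between libraries. GDH1, the main NADP-dependent enzyme in the opposite, assimilating direction, had 173, 167 and 163 CPM in CX01F, against 275, 288 and 263 CPM in CX01 (log2 -0.72, edgeR adjusted p = 4.55e-11). GDH1 lies on XV, whose median was -0.86, and among the genes of XV alone it was higher in CX01F (log2 0.12, edgeR adjusted p = 0.00681). GDH3, the second NADP-dependent isoenzyme, known in yeast for growth on non-fermentable carbon, had 78.3, 82.1 and 77.5 CPM in CX01F, against 54.8, 56.3 and 52.9 CPM in CX01 (log2 0.54, edgeR adjusted p = 1.21e-09).

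Taken per coding length within a library, GDH3 made up 31.1%, 32.9% and 32.1% of the GDH1 and GDH3 signal in CX01F, against 16.5%, 16.3% and 16.6% in CX01. The difference of 15.5 percentage points again gave p = 0.1, the smallest that a two-sided exact permutation test over these libraries allows. No scaling enters this share, but GDH1 lies on XV (median log2 change -0.86). The part of that chromosome in the share was not tested. The coding sequences of GDH1 and GDH3 are 76.7% identical, and the longest identical run is 35 bases, so an exact match to both needs a read no longer than that. GDH2 stood to GDH1 at 5.32 ± 0.116 per coding length in CX01F and 1.12 ± 0.0287 in CX01. This ratio also rests on GDH1 of XV, and the part of that chromosome in it was not tested.

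**Figure D4:**
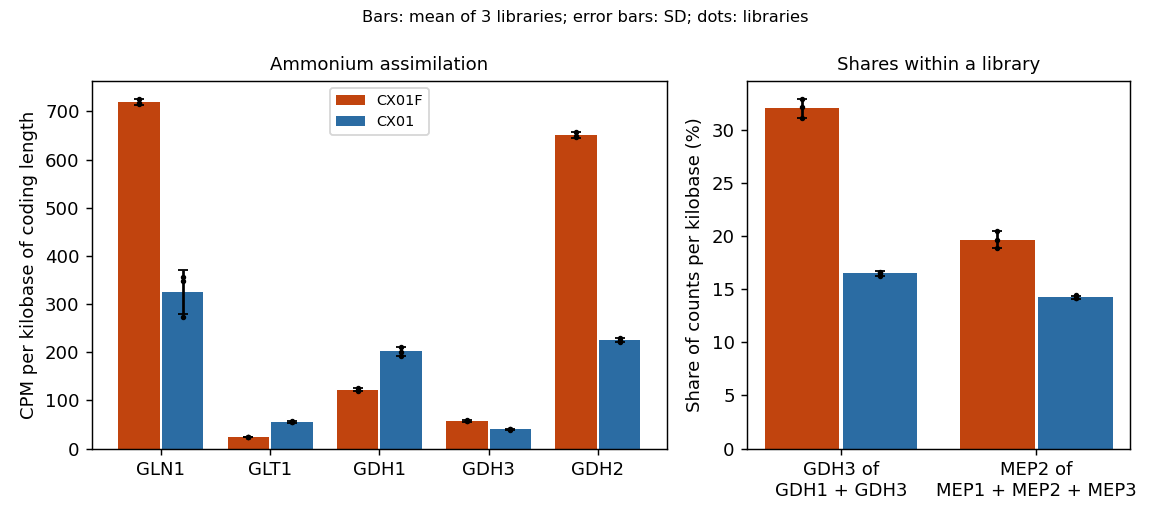
Left, levels of the ammonium assimilation genes in CPM per kilobase of coding length, and right, the share of GDH3 in GDH1 plus GDH3 and of MEP2 in the 3 ammonium permeases, with CX01F to the left of CX01. Bars are means of 3 libraries, error bars SD and dots libraries. GLN1 and GDH2 reach 720 and 651 in CX01F, against 325 and 225 in CX01.

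The proline genes all fell, most of all at the start of the route. PUT1, proline oxidase, had 259, 272 and 258 CPM in CX01F, against 1236, 1276 and 1299 CPM in CX01. It was 4.83-fold lower (log2 -2.27, SE 0.0314, edgeR adjusted p = 4.01e-17), the largest fall among the 30 of these genes outside XI and XV. PUT2, pyrroline-5-carboxylate dehydrogenase, the second enzyme of the pathway, fell 1.45-fold to 203 ± 2.45 CPM in CX01F, against 295 ± 8.68 CPM in CX01 (log2 -0.54). PUT3, the activator that binds these genes, had 204, 207 and 197 CPM in CX01F, against 392, 400.5 and 385 CPM in CX01 (log2 -0.95). PUT3 lies on XI, and within the genes of XI its log2 change was -0.11 (edgeR adjusted p = 0.00105). The pathway's fall was thus steepest at the permease PUT4 and at PUT1, and shallow at PUT2 and, within its chromosome, at PUT3.

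The Put3 site is known as CGG followed by any 10 bases and CCG, which reads the same on both strands. In the 600 bases before the start codon it occurred in 3.18% of 5999 promoters and in 3 of the 35 genes, namely at 2 places before PUT1 and at 1 each before PUT2 and GDH2. No such word was in the window before PUT4. The stretch before PUT1, at chrXII:424786-425085, plus strand, is shown with both matches in capitals, because PUT1 fell most of the 30 members outside XI and XV.

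PUT1: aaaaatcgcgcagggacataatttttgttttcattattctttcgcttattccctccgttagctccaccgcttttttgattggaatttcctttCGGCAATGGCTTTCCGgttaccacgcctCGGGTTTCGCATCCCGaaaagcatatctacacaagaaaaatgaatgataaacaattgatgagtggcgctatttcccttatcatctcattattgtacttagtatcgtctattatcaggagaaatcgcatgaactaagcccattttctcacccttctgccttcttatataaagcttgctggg

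GABA use was split. UGA1, GABA transaminase, had 345, 340 and 344 CPM in CX01F, against 96.6, 97.8 and 94.3 CPM in CX01. It rose 3.57-fold (log2 1.83, SE 0.0261, edgeR adjusted p = 5.40e-17), while the permease UGA4 fell. Per coding length, UGA1 stood to UGA4 at 34.0 ± 1.26 in CX01F and 4.05 ± 0.114 in CX01. UGA2, succinate semialdehyde dehydrogenase, averaged 109 ± 2.22 CPM in CX01F, against 125 ± 4.03 CPM in CX01 (log2 -0.19). UGA3, the activator of these genes, averaged 113 ± 0.383 CPM in CX01F, against 91.3 ± 1.68 CPM in CX01 (log2 0.31), and its log2 change was 0.10 when libraries were scaled by size alone. UGA1, UGA2 and UGA4, which Uga3 is known to activate, thus had log2 changes of 1.83, -0.19 and -1.24.

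The arginine breakdown genes fell from high levels, moderately at CAR2 and by a small amount at CAR1. CAR2, ornithine transaminase, had 652, 664 and 637 CPM in CX01F, against 1191, 1283 and 1258 CPM in CX01 (log2 -0.93, SE 0.0319, edgeR adjusted p = 8.52e-13). CAR1, arginase, averaged 563 ± 5.26 CPM in CX01F, against 673 ± 14.7 CPM in CX01 (log2 -0.26). Neither gene had GATAAG in the 600 bases before its start codon.

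The allantoin genes did not move as a block although 5 of the members and DAL7 lie side by side on chromosome IX. The order in R64 is DAL1, DAL4, DAL2, DCG1, DAL7 and DAL3. DAL1, allantoinase, had 16.3, 15.5 and 15.2 CPM in CX01F, against 8.90, 8.76 and 8.22 CPM in CX01 (log2 0.86, SE 0.0591, edgeR adjusted p = 3.28e-09). Its divergent neighbour DAL4, 825 bases away, rose more, as given above. DAL2, allantoicase, was not called, averaging 32.2 ± 0.275 CPM in CX01F, against 30.8 ± 0.551 CPM in CX01 (log2 0.068, edgeR adjusted p = 0.0942). With scaling by library size only it was called lower (log2 -0.14, edgeR adjusted p = 0.00253). DCG1 had 9.57, 9.32 and 8.94 CPM in CX01F, against 13.4, 16.0 and 14.9 CPM in CX01 (log2 -0.68, edgeR adjusted p = 4.25e-07).

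At the far end, DAL3, ureidoglycolate lyase, averaged 4.65 ± 0.273 CPM in CX01F, against 5.31 ± 0.109 CPM in CX01. Its log2 change of -0.19 passed narrowly (SE 0.081, edgeR adjusted p = 0.0395) and did not pass with DESeq2 (adjusted p = 0.0833) or with limma voom (adjusted p = 0.0575) (both over all tested genes). It also missed the threshold without CX01F replicate 1 or 2 (adjusted p = 0.0647 and 0.134) and without CX01 replicate 1, 2 or 3 (0.0525, 0.101 and 0.0592), by edgeR. DAL7, a malate synthase that is not among the 35, rose between DCG1 and DAL3, to 37.7 ± 0.502 CPM in CX01F, against 19.4 ± 0.302 CPM in CX01 (log2 0.96). The rising genes are thus not contiguous along the cluster, since DCG1, which fell, lies between DAL4 and DAL7.

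**Figure D5:**
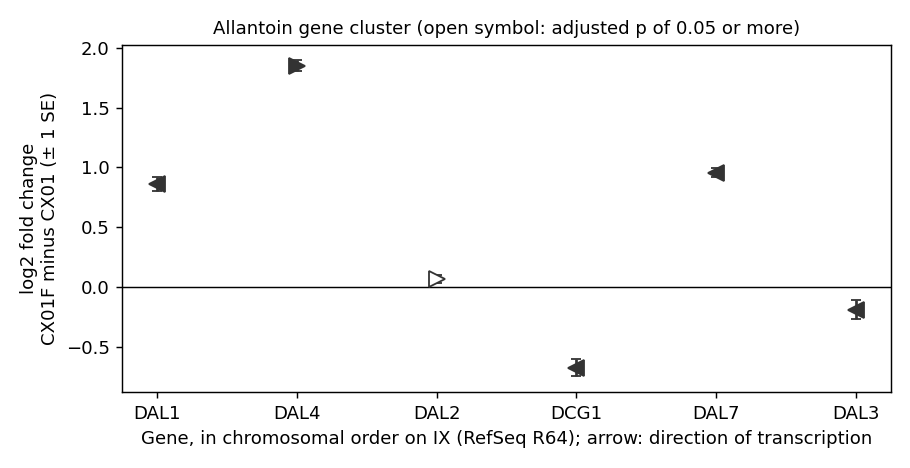
Log2 fold change of CX01F minus CX01 for the 6 neighbouring allantoin genes in their chromosomal order, with bars of 1 SE and arrows for the direction of transcription. DAL1, DAL4 and DAL7 are higher in CX01F, DCG1 and DAL3 are lower, and DAL2, drawn open, was not called.

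DUR1,2 and DAL81, which lie outside the cluster, fell by small amounts. DUR1,2, urea amidolyase, which breaks urea into ammonium and carbon dioxide, had 197, 210.5 and 197 CPM in CX01F, against 236, 243 and 229 CPM in CX01 (log2 -0.23, edgeR adjusted p = 1.01e-05). DAL81, an activator shared by the urea and GABA genes, averaged 83.2 ± 1.99 CPM in CX01F, against 104 ± 5.17 CPM in CX01 (log2 -0.32). DAL82, the activator of the allophanate-induced genes, was not called, averaging 39.7 ± 1.66 CPM in CX01F, against 41.8 ± 0.632 CPM in CX01 (log2 -0.072, edgeR adjusted p = 0.0842). It was called lower with library size only (log2 -0.28) and without the genes of XI and XV (log2 -0.19).

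Ranked per kilobase of coding length, the leading mRNAs of the 35 were not the same in both strains. In CX01F the order was GLN1 at 720 ± 5.98, GDH2 at 651 ± 5.81, CAR1 at 562 ± 5.25 and CAR2 at 511 ± 10.9 CPM per kilobase, each neighbour parted by more than the SDs. In CX01 it was CAR2 at 975 ± 37.3, PUT4 at 963 ± 22.9, PUT1 at 888 ± 22.5 and CAR1 at 672 ± 14.7 CPM per kilobase, with CAR2 and PUT4 inside each other's spread. PUT4 was 14th of 35 in CX01F and 2nd in CX01, and PUT1 was 7th in CX01F and 3rd in CX01. At the bottom stood DAL80 in CX01F and CAN1, at 3.51 ± 0.0794 CPM per kilobase, in CX01.

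Other genes of nitrogen metabolism were read from the same fit. In that fit 45.5% of all tested genes were called higher in CX01F and 45.9% lower. Whether any of the lists below departs from those shares was not tested. Of 25 further genes known as sensitive to nitrogen catabolite repression, 21 were tested and 13 rose and 7 fell (median log2 change 0.44). The 4 untested ones, the ASP3 asparaginase copies, had 0 counts in every library. The largest called changes were those of RTS3, averaging 230 ± 4.13 CPM in CX01F, against 1046 ± 39.9 CPM in CX01 (log2 -2.19), and of OPT2, an oligopeptide transporter, averaging 81.7 ± 0.266 CPM in CX01F, against 25.0 ± 1.44 CPM in CX01 (log2 1.70). Of 17 genes of TORC1 signalling to Gln3 and of permease sorting, 7 rose and 9 fell (median -0.24). The largest changes were in LST8, a TORC1 subunit (log2 -1.23), and SAP190, a partner of the phosphatase Sit4, on XI (log2 -1.20).

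Of 13 other regulators of amino acid genes 4 rose and 8 fell (median -0.15), with ARG82, an inositol polyphosphate kinase needed for arginine control, at log2 -1.55 and UME6, which represses CAR1, at -0.87. Of 11 other genes of amino acid metabolism, not all of them specific to breakdown, 7 rose and 4 fell (median 1.81). They ranged from CHA1, the serine and threonine deaminase, at log2 -4.74, to ARO8, an aromatic aminotransferase, at 4.13. ARO8 had 516 ± 7.36 CPM in CX01F, against 29.5 ± 1.76 CPM in CX01. The other aromatic genes of that list, ARO9 and ARO10, went the opposite way, at log2 -2.50 and -2.57. All 10 genes that supply 2-oxoglutarate or make proline rose (median 1.51), led by IDP2, the cytosolic NADP-dependent isocitrate dehydrogenase (log2 2.90), and ODC2, a mitochondrial 2-oxodicarboxylate carrier, on XV (log2 2.34). PRO1, PRO2 and PRO3, which make proline, rose by log2 changes of 1.12, 0.70 and 1.08. That was opposite in direction to PUT1, PUT2 and PUT4, which take proline up and break it down. PRO2 and PUT4 lie on XV, whose median log2 change was -0.86.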

How the data were processed

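Total RNA of 3 CX01F and 3 CX01 cultures was sequenced. The authors deposited raw counts of reads for each gene, as whole numbers. TopHat2 2.0.12, featureCounts, Subread 1.4.6 and Cufflinks are named, without roles, per the submitters' processing notes. Genome build, annotation, strand setting and the handling of reads with several matches are not given in the sources used here. One unnamed row, 0.00877% to 0.00916% of counts in CX01F and 0.0392% to 0.044% in CX01, was kept out.

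The test across all genes used edgeR 4.0.16 under R 4.3.3: filterByExpr (minimum count 10, minimum total 15, which left 6129 genes), TMM scaling, and the two-sided quasi-likelihood test of strain with 4 residual degrees of freedom and Benjamini-Hochberg adjustment. It was also run on simulated counts in which few genes changed. That setting differs from these data, in which most genes were called, so the run does not cover them. Log2 fold changes are CX01F minus CX01, SE is the change divided by the square root of F, and levels are CPM as mean ± SD. A count of 0 allows up to 3 counts, 0.0478 to 0.0568 CPM in CX01F and 0.0475 to 0.0582 CPM in CX01, for counting error only. DESeq2 1.42.0, limma 3.58.1 voom, other scalings, no filter, a replicate block, single left-out libraries and fits without or within XI and XV were alternatives. The fits within XI or XV alone and the 600-base window were added after the data were seen.

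The 35 genes and the lists were chosen with earlier results of these data known. All 35 are named, and of each further list the 2 called genes of largest absolute change with a mean of at least 10 CPM. DAL7, the ASP3 copies and the PRO genes are named for their place beside members, and ARO9 and ARO10 beside ARO8. Replicates are called biological by the labels, which give no batch, so batch and strain cannot be told apart. Same-numbered libraries did not deviate together in all 3 pairs (-0.00493, 0.195 and 0.0224), so the numbers were not taken as pairs. Names, coding lengths, neighbours and sequences come from RefSeq R64. All 35 genes matched (DUR1,2 is DUR12 there), none overlaps another annotated gene, and none shares a 50-base word of its coding sequence with another place.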

Additional observations from a re-analysis of the deposited data

How the results depend on the processing

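Of the single-gene values, 435 kept direction and side of the threshold under the alternatives other than the fits within XI or XV. The call was lost in 9, of which 8 were of DAL3 and 1 of GZF3, and gained in 4, of which 2 were of DAL82 and 1 each of DAL5 and DAL2. The median log2 change of the members (-0.23) was -0.44 with scaling by library size only. That scaling moved the median of all tested genes by -0.207. Without the genes of XI and XV it was -0.28 over 30 members, against -0.17 for those members in the fit of all genes. Leaving those chromosomes out moved log2 changes by a median of -0.116. With 1 library left out the median of the members was -0.25 to -0.21. DAL5 and DAL2, neither of them called in the report, turned to -0.16 and -0.14 with library size only, both called lower there, and to -0.065 and -0.048 without XI and XV, neither called. With the genes of its own chromosome only, GAP1 turned to 0.035 and GDH1 to 0.12. The causes were not tested. Called members stayed at 10 or 11 higher, and at 20 to 24 lower wherever all 35 were fitted. Leaving out 1 library gave 11 higher, 20 to 21 lower and 5501 to 5617 called genes. The replicate block gave 11 higher and 20 lower members, with DAL3 no longer called (adjusted p = 0.0577). Without 1 library the difference in GDH3 share ranged from 15.1 to 16.0 percentage points, and that in MEP2 share moved by less than its SD. The share of member promoters with a match was 42.9% for GATAAG, 74.3% for GATAA and 77.1% for GATAAG in 600 bases, the last 2 by the wider word or window. Depth limits mainly DAL80 in CX01F, DAL3 and CAN1.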
